A study of Mus musculus with 12 samples.

Results

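Myh11, Myl9, Mylk, Acta2, Tpm2, Tagln, Cnn1, Cnn2, Lmod1 and Synpo2 encode proteins of the contractile apparatus of smooth muscle. These 10 genes were taken by name out of 54146 genes counted in whole retinas of 12 mice, and 9 of them were among the 18628 genes that passed edgeR's filter on low counts. Cnn1 did not pass, and no call is read from it. The list was chosen by earlier results of the same libraries, in which the CPM of several of these genes was low in cKO mice, so levels and calls against the P30 mice are a description, from which nothing is read. No gene was added or dropped for its level.

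Smooth muscle contracts when calcium-bound calmodulin activates myosin light chain kinase, which phosphorylates the regulatory light chain of smooth muscle myosin and lets the myosin pull on filaments of α-actin. Tropomyosin, calponins, leiomodin and transgelin bind these actin filaments. In the eye, contractile smooth muscle lies in the walls of arterioles, in the ciliary muscle and in the muscles of the iris, whereas pericytes surround the capillaries of the retina. Many genes of this set are known targets of serum response factor (SRF) and its partner myocardin.

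The RNA came from whole retina, pigmented epithelium (RPE) included, of mice on a 129/SV background, with 1 library per mouse and 3 mice per group. The labels give the P30 mice (1 to 3) only as control, with no induction and a source named for the Crx line. The cKO mice carried Crx-CreERT2 and Otx2 flox/flox, so that a single injection of tamoxifen at P30 removed a coding exon of Otx2 in photoreceptors, where the Crx transgene is active, and the RPE and bipolar cells kept the gene. They were taken 2, 4 and 8 d later, at P32 (mice 4 to 6), P34 (7 to 9) and P38 (10 to 12), so tamoxifen, deletion and up to 8 d of age cannot be told apart in any comparison with P30.

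Otx2 itself had 293 to 328 CPM (counts relative to the library size, scaled by edgeR's TMM method) in P30 mice and 307 to 377 CPM in cKO mice. These counts cover the whole gene and do not check the removal of 1 exon. Libraries held 29701483 to 60145034 counts on genes, and the 3 control retinas did not match each other: most genes of the contractile set were several times lower in P30 mouse 1 than in P30 mice 2 and 3. EdgeR's calls of the contractile genes at each age against P30 are therefore given with and without P30 mouse 1. Most other results against P30 use all 3 P30 mice. By their Xist level, all 3 P30 mice and 4 of the 9 cKO mice (5, 6, 9 and 12) were female. The photoreceptor gene Gnat1 (rod transducin) had 10635 to 19548 CPM and Glul, the glutamine synthetase of Müller glia, 2202 to 2829 CPM, so all libraries held retina. In bulk RNA, fewer cells of a type and less RNA per cell cannot be told apart.

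The 10 genes did not behave as 1 set. Myh11, Tagln, Acta2, Myl9, Cnn1 and Cnn2 had their highest levels of all 12 mice in P30 mice 2 and 3. Acta2 also varied among the cKO mice, in which it was lowest at P34. Tpm2 was high in P30 mice 2 and 3 and in single P34 and P38 mice, Lmod1 was low in all groups, Synpo2 had levels of similar size in all groups, and Mylk overlapped with P30 at each age, with all P38 mice above all P32 mice. Of the 9 genes tested, 5 had both P30 mice 2 and 3 above the other 10 mice, as did 2.00% of all genes tested, and so did Cnn1. This split of the mice was chosen after the levels of these genes were seen, so nothing is read from that count.

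**Figure D1:**
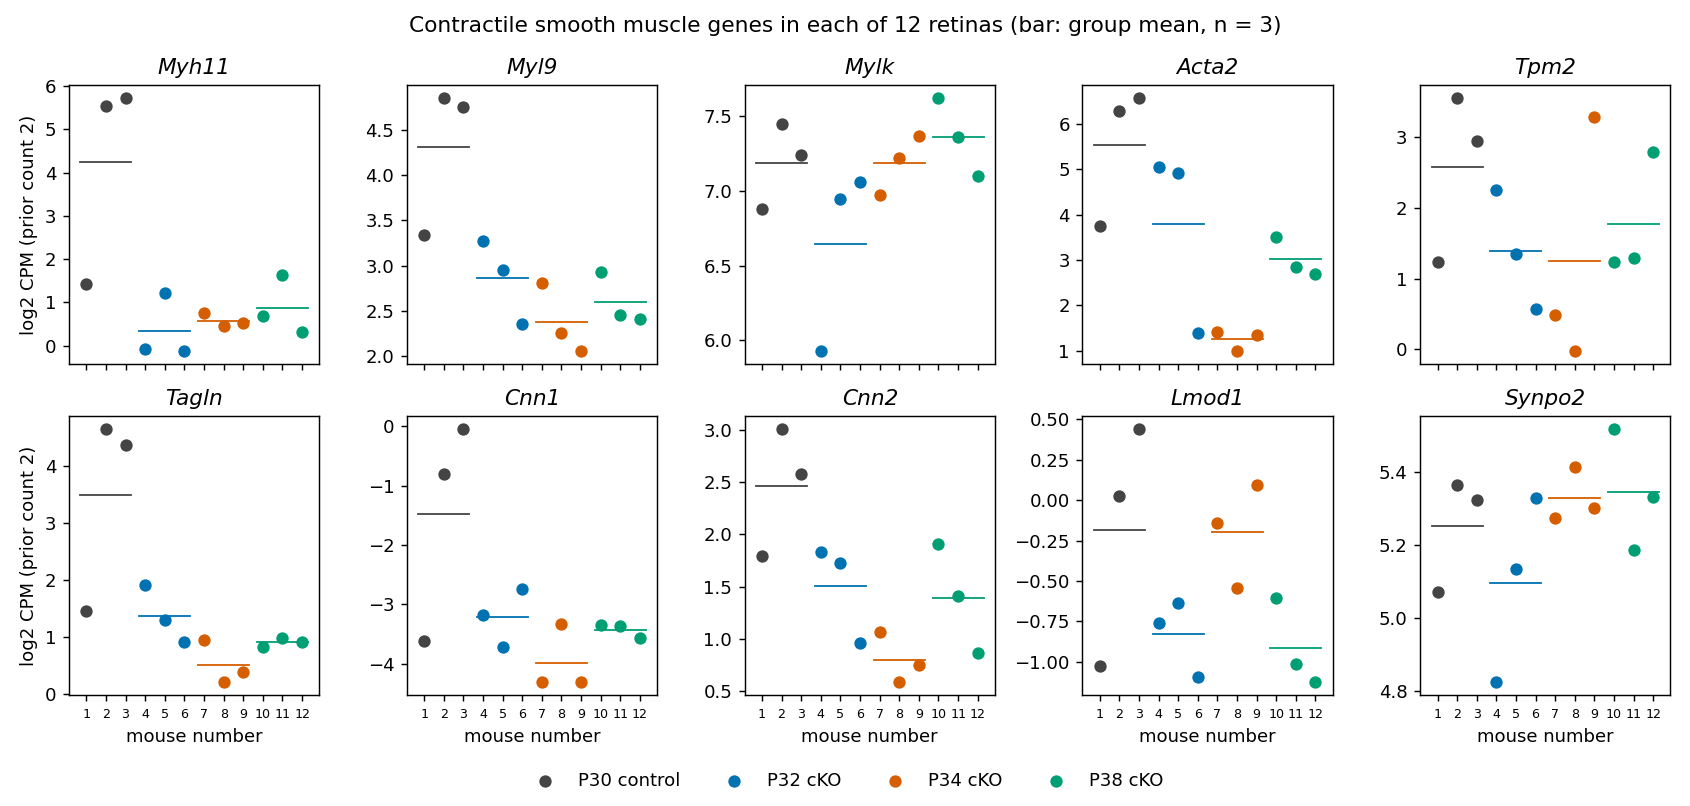
Log2 CPM (prior count 2) of the 10 contractile genes on the vertical axes, each with its own scale, against mouse number; points are single retinas colored by group and bars are group means (n = 3). Myh11, Myl9, Acta2, Tagln, Cnn1 and Cnn2 have their 2 highest points in P30 mice 2 and 3, whereas Synpo2 lies at similar levels in all groups apart from a low P32 mouse 4, and Mylk has its 3 P32 points below its 3 P38 points.

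Because many of these genes are known SRF targets, the bases before their start sites were searched for the CArG box, the site that SRF binds (CC, then 6 bases that are each A or T, then GG, which reads the same way on both strands). RefSeq windows from 250 bases before to 50 bases after the start (GRCm38.p6) were at hand for 8 of the 10 genes, which did not include Myh11 and Tagln. An exact CArG box stood in the windows of Myl9 and Cnn2, and in 535 of 32851 mouse promoter windows of the same length (1.63%). With 1 of the 6 inner bases allowed to be C or G, and the outer CC and GG kept, Acta2 was added, at 2 places, and Myl9 had a second match; 9.98% of all windows held a match of this kind. No match of either kind was found in the windows of Lmod1, Synpo2, Tpm2, Cnn1 and Mylk, which says only that these letters are not in that stretch, and boxes with a change in the outer CC or GG were not searched for. The Mylk window (chromosome 16, 34784700 to 34784999) lies inside the gene, whose first base is at 34745210, so the bases before the gene were not searched. Levels did not divide the windows with and without a match. Synpo2, with none, had like levels in all groups, whereas Cnn1 and Tpm2, also with none, were high in P30 mice 2 and 3. The 250 bases before the start are shown, 5′ to 3′, for the 3 genes with a match, with CArG boxes in capitals, and for Synpo2.
Myl9: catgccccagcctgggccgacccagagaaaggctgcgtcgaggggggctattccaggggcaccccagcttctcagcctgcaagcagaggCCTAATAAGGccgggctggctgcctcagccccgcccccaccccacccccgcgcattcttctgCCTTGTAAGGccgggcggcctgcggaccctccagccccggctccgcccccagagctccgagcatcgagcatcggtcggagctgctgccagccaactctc
Cnn2: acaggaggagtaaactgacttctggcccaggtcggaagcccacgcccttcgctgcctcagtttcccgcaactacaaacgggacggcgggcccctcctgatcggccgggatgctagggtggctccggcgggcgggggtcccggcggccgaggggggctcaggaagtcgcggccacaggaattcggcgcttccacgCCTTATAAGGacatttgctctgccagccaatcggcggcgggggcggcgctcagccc
Acta2: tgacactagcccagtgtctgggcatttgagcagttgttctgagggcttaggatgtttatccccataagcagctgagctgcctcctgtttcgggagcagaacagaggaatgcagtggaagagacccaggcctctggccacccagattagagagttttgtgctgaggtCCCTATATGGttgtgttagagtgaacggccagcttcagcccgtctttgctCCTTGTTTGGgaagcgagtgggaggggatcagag
Synpo2: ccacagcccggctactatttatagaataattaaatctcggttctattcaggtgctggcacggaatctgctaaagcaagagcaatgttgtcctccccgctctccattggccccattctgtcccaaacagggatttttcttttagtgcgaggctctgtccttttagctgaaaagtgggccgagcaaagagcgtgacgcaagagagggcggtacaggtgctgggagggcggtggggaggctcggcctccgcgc
These stretches are chr2:156775214-156775463 on the plus strand for Myl9, chr10:79988350-79988599 on the plus strand for Cnn2, chr19:34255374-34255623 on the minus strand for Acta2 and chr3:123236150-123236399 on the minus strand for Synpo2. In Myl9 the exact box CCTAATAAGG lay 161 to 152 bases before the start and CCTTGTAAGG, 1 inner base off, lay 99 to 90 bases before it. In Cnn2 the exact box CCTTATAAGG lay 56 to 47 bases before the start. In Acta2 CCCTATATGG lay 84 to 75 bases and CCTTGTTTGG 34 to 25 bases before the start, each 1 inner base off. All distances are from the RefSeq start. In Myl9, Cnn2 and Acta2 it lies inside the gene as placed below, whose first base is 156775420, 79988584 and 34255590 in turn. A match of letters is a description and not a binding site.

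**Figure D2:**
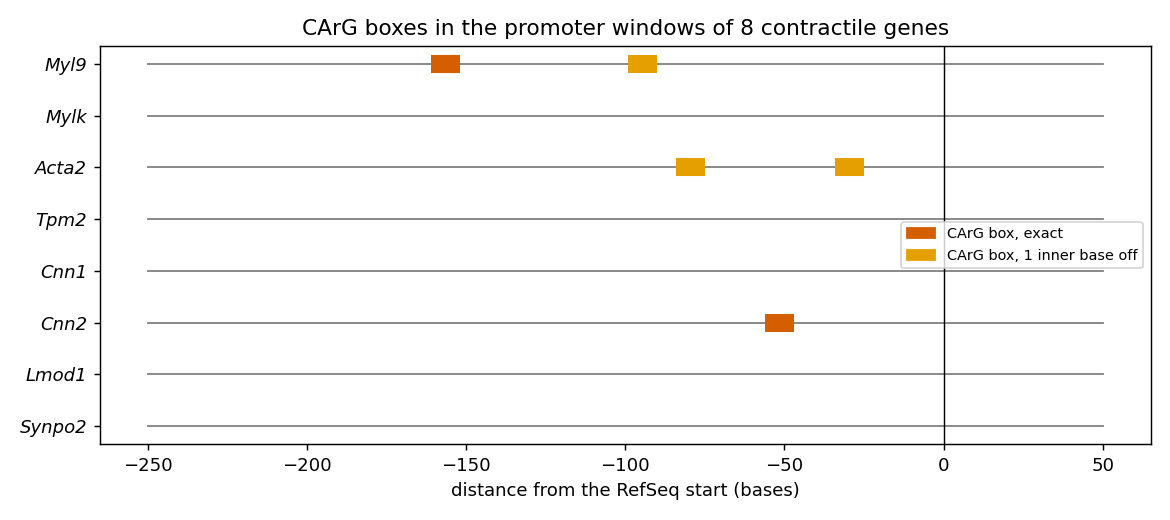
CArG boxes in the promoter windows of 8 contractile genes; the horizontal axis is the distance from the RefSeq start in bases and each gray line is the window of 1 gene. Exact boxes (dark orange) stand in Myl9 and Cnn2, boxes with 1 of the 6 inner bases off (light orange) in Myl9 and Acta2, and no match of either kind in the other 5 windows.

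The motor genes come first. Myh11 (ENSMUSG00000018830, chromosome 16, 14194535 to 14291372, minus strand, GRCm38) encodes the heavy chain of smooth muscle myosin and is the most specific marker of the set. P30 mouse 1 had 2.65 CPM, whereas 46.7 and 53.2 CPM were counted in P30 mice 2 and 3. P32 mice had 0.900, 2.27 and 0.863 CPM, P34 mice 1.63, 1.32 and 1.39 CPM, and P38 mice 1.55, 3.07 and 1.19 CPM. All cKO mice were thus low, 8 of 9 lay below P30 mouse 1, and the lower of P30 mice 2 and 3 was 15.2-fold above the highest cKO mouse. The fitted log2 fold change against all P30 mice was -4.66 (SE 0.88) at P32, -4.56 (SE 0.87) at P34 and -4.12 (SE 0.85) at P38, that is 25.2, 23.6 and 17.4 times lower. Within the P30 group the spread was of a like size, as P30 mouse 3 had 20.1 times the Myh11 of P30 mouse 1.

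Myl9 (ENSMUSG00000067818, chromosome 2, 156775420 to 156781658, plus strand) encodes the regulatory light chain that the kinase phosphorylates. Its level was 10.0 CPM in P30 mouse 1, 28.9 CPM in P30 mouse 2 and 27.0 CPM in P30 mouse 3. P32 mice had 9.63, 7.68 and 5.08 CPM, P34 mice 6.96, 4.70 and 4.10 CPM, and P38 mice 7.57, 5.42 and 5.26 CPM. Every cKO mouse lay below every P30 mouse in Myl9, although P32 mouse 4 (9.63 CPM) lay just under P30 mouse 1. The share of all genes that did so over the 3 ages together was not counted. At P32, P34 and P38 taken singly it was 4.39, 9.67 and 7.96%. Its log2 fold change against P30 was -1.56 (SE 0.37) at P32, -2.06 (SE 0.38) at P34 and -1.85 (SE 0.38) at P38.

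Mylk (ENSMUSG00000022836, chromosome 16, 34745210 to 35002420, plus strand) encodes myosin light chain kinase, which many cell types other than smooth muscle also make. P30 mice had 118, 174 and 151 CPM, P32 mice 60.8, 123 and 133 CPM, P34 mice 125, 149 and 165 CPM, and P38 mice 197, 164 and 137 CPM. Each cKO group overlapped with P30, all P38 mice lay above all P32 mice, and P32 mouse 4 lay far below the rest. The log2 fold change against P30 was -0.48 (SE 0.26) at P32, -0.01 (SE 0.26) at P34 and 0.17 (SE 0.26) at P38. Mylk overlaps the antisense gene E130310I04Rik, which had 1430 to 3147 counts in each library.

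The genes of the actin filament followed. Acta2 (ENSMUSG00000035783, chromosome 19, 34241090 to 34255590, minus strand) encodes smooth muscle α-actin. It was at 13.5, 77.9 and 95.2 CPM in P30 mice 1, 2 and 3. P32 mice split, with 33.1 and 30.1 CPM in mice 4 and 5 and 2.59 CPM in mouse 6. P34 mice had 2.60, 1.94 and 2.51 CPM, and P38 mice 11.4, 7.15 and 6.45 CPM. P34 was therefore the group with the lowest Acta2, and P38 lay above P34 with no overlap. The log2 fold change against P30 was -1.50 (SE 0.76) at P32, -4.73 (SE 0.89) at P34 and -2.90 (SE 0.80) at P38.

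Acta2 and Myh11 did not keep 1 ratio. Per length (RPKM, which is CPM divided by the exon length in kilobases), Acta2 was 5.77 and 6.19 times Myh11 in P30 mice 2 and 3, and 5.06 to 6.25 times Myh11 in the 3 P34 mice. The ratio was 127 and 45.9 in P32 mice 4 and 5, 17.6 in P30 mouse 1, 10.4 in P32 mouse 6, and 25.3, 8.06 and 18.8 in P38 mice 10, 11 and 12. P32 mice 4 and 5 thus held Acta2 at 33.1 and 30.1 CPM beside Myh11 at 0.900 and 2.27 CPM.

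Tpm2 (ENSMUSG00000028464, chromosome 4, 43514711 to 43523765, minus strand) encodes β-tropomyosin, which skeletal muscle also makes in quantity. P30 mice had 2.30, 11.8 and 7.67 CPM and P32 mice 4.71, 2.51 and 1.43 CPM. P34 mice had 1.35, 0.931 and 9.72 CPM and P38 mice 2.31, 2.39 and 6.86 CPM. P34 mouse 9 lay between P30 mice 2 and 3, P38 mouse 12 lay just below both, and the groups overlapped at all ages. The log2 fold change was -1.33 (SE 0.86) at P32, -0.87 (SE 0.85) at P34 and -0.92 (SE 0.84) at P38.

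Tagln (ENSMUSG00000032085, chromosome 9, 45929619 to 45936058, minus strand) encodes transgelin, also called SM22α, an actin-bundling protein. It was at 2.71 CPM in P30 mouse 1 and at 25.1 and 20.7 CPM in P30 mice 2 and 3. P32 mice had 3.72, 2.40 and 1.82 CPM, P34 mice 1.88, 1.10 and 1.25 CPM, and P38 mice 1.72, 1.92 and 1.83 CPM. P34 and P38 mice lay below all P30 mice, and P32 mouse 4 lay above P30 mouse 1. The log2 fold change was -2.61 (SE 0.60) at P32, -3.51 (SE 0.64) at P34 and -3.14 (SE 0.62) at P38. Of the 50-base windows of Tagln transcripts, 58.3% also lie in transcripts of the opposite strand, mainly of the antisense gene Gm48529 (82 to 224 counts per library), and 0% in another gene of the same strand.

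The calponins inhibit the myosin motor on actin. Cnn1 (ENSMUSG00000001349, chromosome 9, 22099216 to 22109630, plus strand), the form of differentiated smooth muscle, had 2, 26 and 31 counts in P30 mice 1, 2 and 3. It had 2, 1 and 4 counts at P32, 0, 2 and 0 counts at P34, and 2, 2 and 1 counts at P38. Only P30 mice 2 and 3 rose above 4 counts, so no fold is given. Cnn2 (ENSMUSG00000004665, chromosome 10, 79988584 to 79996062, plus strand), which many cell types make, was at 3.41, 8.02 and 5.91 CPM in the P30 mice. P32 mice had 3.51, 3.26 and 1.90 CPM, P34 mice 2.04, 1.45 and 1.62 CPM, and P38 mice 3.71, 2.60 and 1.77 CPM. All P34 mice lay below all P30 mice, whereas P30 mouse 1 lay within the range of the P32 and P38 mice. The log2 fold change was -1.0 (SE 0.35) at P32, -1.76 (SE 0.37) at P34 and -1.09 (SE 0.36) at P38.

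Lmod1 (ENSMUSG00000048096, chromosome 1, 135324807 to 135368065, plus strand) encodes leiomodin, which starts new actin filaments. It was low in all libraries, with 0.442, 0.969 and 1.31 CPM in P30 mice, 0.540, 0.594 and 0.419 CPM in P32 mice, 0.856, 0.637 and 1.02 CPM in P34 mice, and 0.607, 0.446 and 0.407 CPM in P38 mice. Its log2 fold change against P30 was -0.78 (SE 0.38) at P32, -0.10 (SE 0.37) at P34 and -0.86 (SE 0.39) at P38. The P34 mice lay above all P32 mice (14.8% of all genes did so) and all P38 mice (4.58%), while Acta2 was lowest at P34. Synpo2 (ENSMUSG00000050315, chromosome 3, 123076519 to 123236149, minus strand) encodes synaptopodin 2, an actin-bundling protein of muscle. P30 mice had 33.6, 41.1 and 40.0 CPM, P32 mice 28.3, 35.0 and 40.1 CPM, P34 mice 38.7, 42.6 and 39.4 CPM, and P38 mice 45.8, 36.4 and 40.2 CPM. Synpo2 thus had the narrowest range of the 10 genes, with a log2 fold change against P30 of -0.15 (SE 0.14) at P32, 0.07 (SE 0.14) at P34 and 0.09 (SE 0.14) at P38.

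Per length, the order of levels differed between P30 mice 2 and 3 and the cKO mice. The median over the P30 mice ran Acta2 (35.5 RPKM), Myl9 (23.2), Mylk (13.4), Tagln (10.4), Myh11 (6.15), Synpo2 (3.05), Tpm2 (2.64), Cnn2 (2.40), Lmod1 (0.245) and Cnn1 (0.192). The median over the cKO mice ran Mylk (12.2 RPKM), Myl9 (4.66), Synpo2 (3.01), Acta2 (2.94), Tagln (0.922), Cnn2 (0.831), Tpm2 (0.822), Myh11 (0.183), Lmod1 (0.151) and Cnn1 (0.0171). P30 mouse 1 lay closer to the cKO order, with Mylk at 10.4, Myl9 at 8.63, Acta2 at 6.13, Synpo2 at 2.57 and Myh11 at 0.349 RPKM. Its Acta2 lay above Synpo2, unlike in the cKO median. Mylk had a like level in both medians, and Myh11 lay above Synpo2 in P30 mice 2 and 3 and far below it in P30 mouse 1 and all cKO mice. As a share of their mean, cKO levels varied most for Acta2 (coefficient of variation 112%) and Tpm2 (82.9%) among the 9 genes tested and least for Synpo2 (12.9%).

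A gene was called lower than at P30 when edgeR's quasi-likelihood test over all genes gave an adjusted p (Benjamini-Hochberg) of at most 0.05 and the log2 fold change was -0.5 or below. At P34, 4 of the 9 genes (Myh11, Tagln, Acta2 and Myl9) were called lower, beside 0.660% of all genes tested. At P32 and P38 none was called, and 0% of all genes were. At an unadjusted p of at most 0.05, 4 of 9 at P32 (1.77% of all genes) and 6 of 9 at P38 (2.66%) were lower, and DESeq2 called 2 (0.0818% of all genes) and 3 (0.159%). With the 9 cKO mice as 1 group, Myh11, Tagln and Myl9 were called (0.0537% of all genes), and none was with sex as a covariate (0%). These contrasts chose the genes, so nothing is read from the counts. Over the 9 genes, log2 fold changes had a median of -1.33, -1.76 and -1.09 at P32, P34 and P38, against -0.01, -0.00 and -0.01 over all genes tested.

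The P34 count rested on single libraries: it was 0 without any one of P30 mice 2 and 3, P34 mice 7, 8 and 9 and P38 mice 10 and 11. Without P30 mouse 1, Cnn2 was added at P34 (5 of the 9 genes, beside 0.777% of all genes), and 3 of the 9 were called at P32 (0.0997%) and at P38 (0.0682%), which at both ages were Myh11, Tagln and Myl9. Cnn1 entered that fit through the counts of P30 mice 2 and 3, where it was high, and is left out of these counts. The P34 log2 fold changes without it were -5.11 for Myh11, -5.21 for Acta2, -4.02 for Tagln, -2.41 for Myl9 and -2.03 for Cnn2. With female mice alone (3 at P30, 2 at P32, 1 at P34 and 1 at P38) Myh11 had log2 fold changes of -4.43, -4.59 and -4.82 at the 3 ages. Values that did not overlap between groups were seen for Myh11 and Myl9 at P32 (4.39% of all genes were lower in this way), for Myh11, Tagln, Acta2, Myl9 and Cnn2 at P34 (9.67%) and for Tagln, Acta2 and Myl9 at P38 (7.96%).

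**Figure D3:**
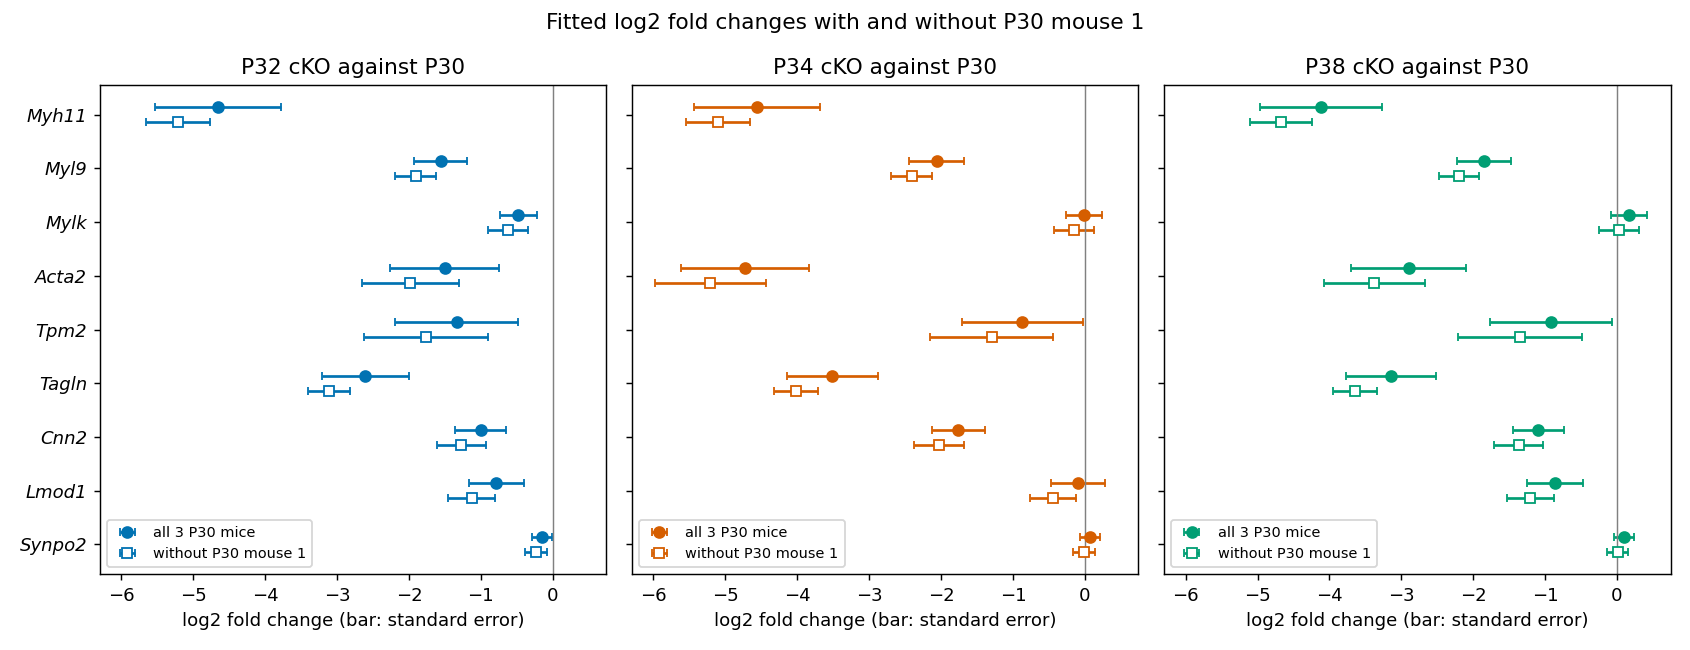
Fitted log2 fold changes against P30 (horizontal axes) of the 9 contractile genes tested at P32, P34 and P38; filled circles use all 3 P30 mice, open squares leave out P30 mouse 1, and bars are standard errors. At each age Myh11 and Tagln lie far below 0 and Synpo2 and Mylk near it, and leaving out P30 mouse 1 moves Myh11 at P34 from -4.56 to -5.11.

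The cKO ages were then compared with each other, which leaves the P30 levels out of the contrast. The spread among the P30 mice still entered the standard errors and the calls, because all groups were in the same fit. No gene of the 9 was called in any of the 3 comparisons by edgeR's quasi-likelihood test, in which 0.242% of all genes were called lower at P34 than at P32, 0.199% higher at P38 than at P34 and 0% either way between P38 and P32. Acta2 came nearest. Its log2 fold change from P32 to P34 was -3.23 (SE 0.85, unadjusted p = 0.00258, adjusted p = 0.0948 by edgeR), and DESeq2 called it (4.95% of all genes were lower), as did edgeR without P32 mouse 6 (6.87%). From P34 to P38 its log2 fold change was 1.83 (SE 0.83, adjusted p = 0.973 by edgeR), with 3 of 3 P38 mice above all P34 mice (5.36% of all genes were higher in this way), and it was called with only these groups in the fit (0.396%). Mylk was higher at P38 than at P32 in 3 of 3 mice (13.3% of all genes were), with a log2 fold change of 0.65 (SE 0.26, adjusted p = 0.170 by edgeR). At an unadjusted p of at most 0.05, Acta2 was the only gene of the 9 past the limit of fold change between P32 and P34 (8.93% of all genes were lower) and between P34 and P38 (3.01% higher), and Mylk between P32 and P38 (5.68% higher). For Myh11 the log2 fold change was 0.10 (SE 0.85) for P34 against P32, 0.44 (SE 0.83) for P38 against P34 and 0.54 (SE 0.83) for P38 against P32. DESeq2 called none of the contractile genes in the comparisons of P38 with P34 and with P32.

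How the genes vary together was examined over the 9 cKO mice alone. Of 36 pairs, 18 had a Pearson r above 0 and the median r was 0.02. Tagln, Acta2, Myl9 and Cnn2 formed a block with r from 0.74 to 0.87. By exact two-sided permutation tests adjusted over the 36 pairs, Pearson r passed 0.05 for 5 pairs. These were Acta2 and Cnn2 (r = 0.87, rho = 0.90, exact p = 0.00343, adjusted p = 0.0411), Myl9 and Cnn2 (r = 0.86, rho = 0.90, exact p = 0.00466, adjusted p = 0.0419), Tagln and Myl9 (r = 0.84, rho = 0.80, exact p = 0.00327, adjusted p = 0.0411), Tagln and Acta2 (r = 0.82, rho = 0.82, exact p = 0.00307, adjusted p = 0.0411), and Synpo2 and Mylk (r = 0.89, rho = 0.68, exact p = 0.00675, adjusted p = 0.0486). Spearman's rho passed for 3 pairs, Acta2 with Cnn2, Myl9 with Cnn2 and Acta2 with Myl9 (rho = 0.93, exact p = 0.000750), each at an adjusted permutation p of 0.0243. Myh11 had r of 0.16 with Acta2 and -0.10 with Tagln, but 0.56 and 0.39 without P32 mouse 4, and none of these passed. In the other direction Tagln had r of -0.82 with Synpo2 (rho = -0.85, adjusted permutation p = 0.0567 for r and 0.0547 for rho) and of -0.79 with Mylk (adjusted permutation p = 0.0794), which did not pass. With DESeq2's size factors 7 pairs passed, the same 5 with Acta2 and Myl9 and with Tagln and Synpo2 added (adjusted permutation p = 0.0485 for both).

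The calls did not hold within ages or without P32 mouse 4. With each gene taken as its deviation from the mean of its age, no pair passed, although r was still 0.78 for Acta2 with Cnn2 and 0.85 for Myl9 with Cnn2 (adjusted permutation p = 0.0541 for both). Without P32 mouse 4 no pair passed either, with r of 0.84 and 0.83 for the same pairs (adjusted permutation p = 0.242 for both). The relation of Synpo2 with Mylk rested on the lowest and highest mice, since r fell to 0.19 without the 2 mice farthest from the median. Without the 2 mice farthest in the first gene or in the second gene of the pair, r was 0.83 or 0.87 for Acta2 with Cnn2, 0.78 either way for Myl9 with Cnn2, 0.71 or 0.60 for Tagln with Myl9, 0.67 or 0.56 for Tagln with Acta2, and 0.56 either way for Acta2 with Myl9. Within a single age 3 mice are too few for a correlation.

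**Figure D4:**
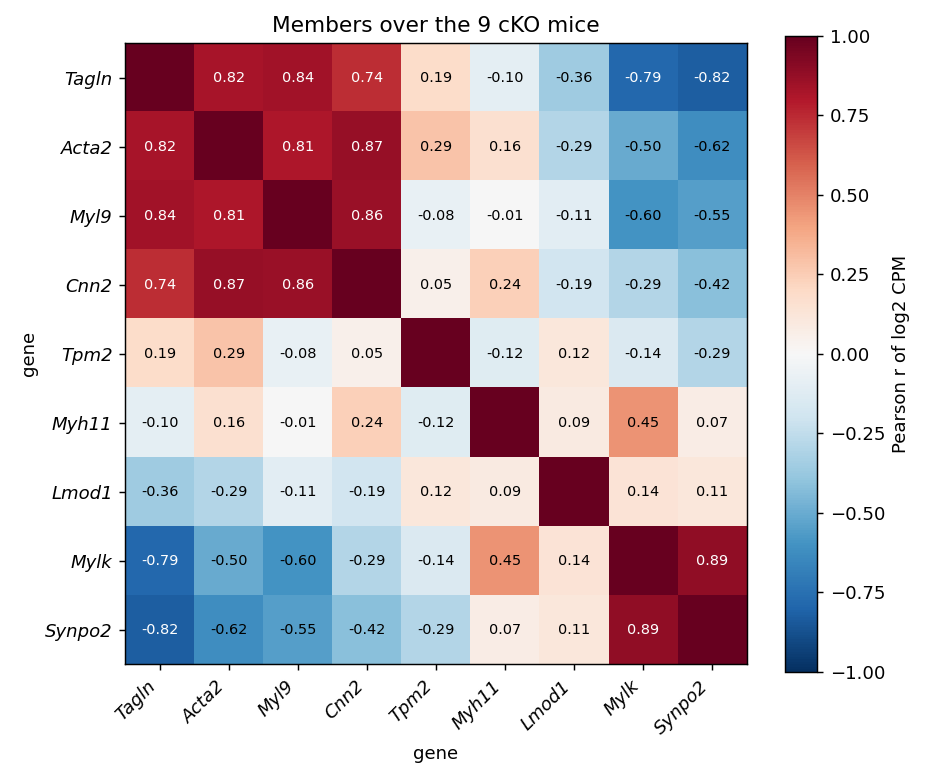
Pearson r of log2 CPM over the 9 cKO mice for each pair of the 9 contractile genes tested (rows and columns), from -1 (blue) to 1 (red), with the value printed in each cell. Tagln, Acta2, Myl9 and Cnn2 form a red block (0.74 to 0.87), Mylk and Synpo2 pair at 0.89, and Myh11 has r of at most 0.45 with any other gene.

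Markers of other cell types were summed in each library and set beside the genes. Pericyte markers (9 of 9 detected in all libraries, among them Pdgfrb, Cspg4 and Rgs5) stayed within 57.6 to 98.2 CPM, and endothelial markers (10 of 10) within 259 to 399 CPM, without the difference between P30 mice 2 and 3 and the other mice that Myh11 showed. Pigment cell markers (7 of 7 detected in all libraries, among them Tyrp1, Dct and Pmel) did show it, summing to 119, 827 and 677 CPM in P30 mice 1, 2 and 3 and to 30.8 to 134 CPM in cKO mice. RPE markers (7 of 7), of which Rpe65 is the best known, ranged over 63.5 to 181 CPM at P30 and 69.2 to 169 CPM in cKO mice. Fibroblast markers (7 of 7) showed it in their mean log2 CPM, which was 2.26, 3.52 and 3.70 in P30 mice 1, 2 and 3 and -0.01 to 2.66 in cKO mice. Their sums did not show it, as P32 mouse 5 reached 112 CPM, more than the 108 CPM of P30 mouse 2. By the same mean, the pericyte list gave 1.58, 1.82 and 2.00 for P30 mice 1, 2 and 3, beside 1.16 to 2.00 for the cKO mice. The rod gene Gnat1 was higher in all P34 mice (13996 to 18408 CPM) than in all P30 mice (11918 to 13194 CPM; 10.4% of all genes were higher in this way), with 10635 to 12493 CPM at P32 and 12948 to 19548 CPM at P38. The part of pigment cells, fibroblasts and photoreceptors in the levels of Myh11, Tagln, Myl9, Cnn1 and Cnn2 was not tested.

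Other markers were lowest, as Acta2 was, at P34. Ciliary body markers (5 of 5 detected) summed to 205, 180 and 199.9 CPM in P30 mice 1, 2 and 3, whose Acta2 was 13.5, 77.9 and 95.2 CPM, so the sum did not follow Acta2 within P30. They summed to 183, 225 and 116 CPM at P32, 45.6 to 51.3 CPM at P34 and 104 to 151 CPM at P38. Lens markers (6 of 6) summed to 1481 and 1447 CPM in P32 mice 4 and 5, which held Acta2 at over 30 CPM, but to 21.7 CPM in P32 mouse 6, 6.13 to 14.8 CPM at P34 and 207 to 653 CPM at P38. P30 mouse 2, with Acta2 at 77.9 CPM, had only 16.7 CPM of lens markers, against 534 and 2281 CPM in P30 mice 1 and 3. Summed fibroblast markers were lowest at P34 too, at 10.3 to 34.8 CPM against 39.3 to 112 CPM at P32 and 56.6 to 86.2 CPM at P38, and were at 93.5 to 135 CPM at P30. Tpm2 was high where skeletal muscle markers (8 genes, of which 5 to 8 were detected per library) were high, at 55.1 CPM in P30 mouse 2, 109 CPM in P34 mouse 9 and 78.8 CPM in P38 mouse 12, but P30 mouse 3 had Tpm2 at 7.67 CPM beside 5.79 CPM of these markers, and P38 mouse 11 had Tpm2 at 2.39 CPM beside 20.2 CPM of them. The part of these cell types in the levels of Acta2 and Tpm2 was not tested.

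**Figure D5:**
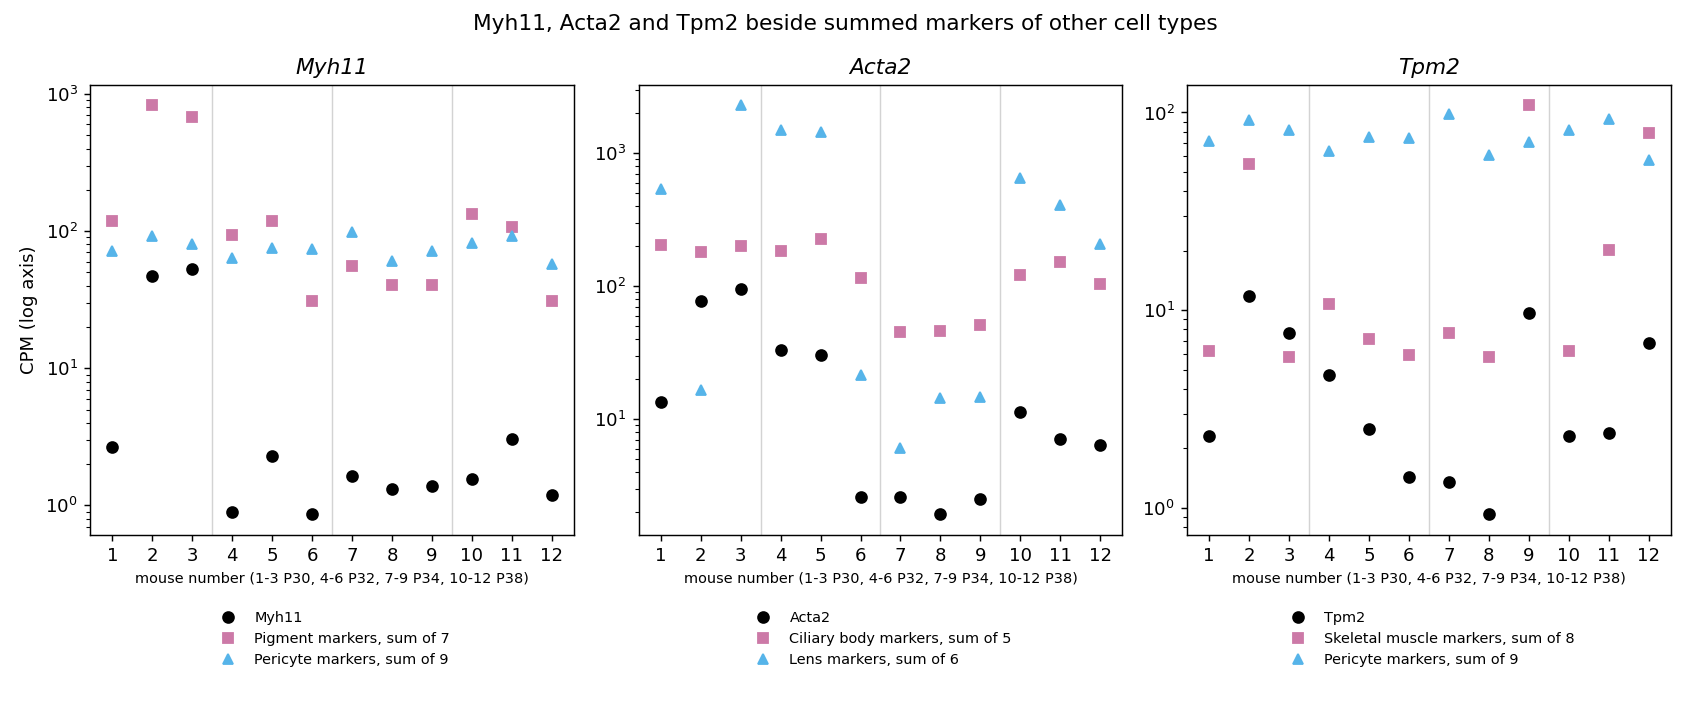
CPM on a log axis against mouse number for Myh11, Acta2 and Tpm2 (black circles), each with the summed CPM of 2 marker lists (pink squares and blue triangles); gray lines divide the 4 groups. Pigment markers are high in the same P30 mice as Myh11 while pericyte markers stay within 57.6 to 98.2 CPM, ciliary body and Acta2 levels are both lowest at P34, and skeletal muscle markers are highest in P34 mouse 9, where Tpm2 is at 9.72 CPM.

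The rest of the smooth muscle program held no gene called by edgeR with all 12 mice. Of 54 further genes (24 of the contractile apparatus and adhesion, 15 of calcium, phosphatase and kinase control, 7 transcription factors and 8 receptors), 50 were tested and none was called in either direction in any comparison by edgeR's quasi-likelihood test. At an unadjusted p of at most 0.05 with the same limit of fold change, 5, 4 and 2 of them were lower than at P30 at the 3 ages in turn (1.77, 5.42 and 2.66% of all genes were) and 0, 1 and 0 higher (1.13, 0.854 and 0.805%). Without P30 mouse 1 and without Actg2, 7, 7 and 3 of 50 were lower (3.06, 4.86 and 2.65%). DESeq2, which tested 53 of them, called 0, 3 and 1 lower (0.0818, 1.5 and 0.159% of all genes), which were Smtn, Cald1 and Flna at P34 and Smtn at P38, and none higher. Between cKO ages DESeq2 called 1 lower and 5 higher at P34 than at P32 (4.95 and 3.47% of all genes), none between P38 and P34, and 1 lower and 4 higher at P38 than at P32 (2.48 and 3.05%). Without P30 mouse 1, edgeR called Smtn lower at each age.

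Actg2, the smooth muscle γ-actin, was too low for the filter with all 12 mice. It had 3, 14 and 21 counts in P30 mice 1, 2 and 3 and 0 to 2 counts in each cKO mouse. It passes a filter only through the P30 mice in which it was high, so no call is read from it. Against P30, 35, 31 and 28 of the 50 genes tested had a log2 fold change below 0 (51.5, 50.2 and 51.8% of all genes did), with medians of -0.22, -0.16 and -0.05. The groups within this list differed in these values. Of 23 genes of the contractile apparatus and adhesion, 17, 20 and 17 were below 0, with medians of -0.33, -0.29 and -0.14. Of 13 genes of calcium, phosphatase and kinase control, 10, 4 and 4 were below 0, with medians of -0.22, 0.10 and 0.19. The 7 receptors tested had 4 below 0 at each age, with medians of -0.21, -0.21 and -0.16. For the 7 transcription factors, among them Myocd, Srf and Mrtfa, the median was -0.09, 0.01 and 0.07 at the same ages. Of 26 paralogs of the contractile genes, 19 were tested and none was called by edgeR in any comparison, with medians of -0.08, 0.01 and 0.03 against P30. At an unadjusted p of at most 0.05, 1 paralog was higher at P34 than at P30 (0.854% of all genes) and none was lower than at P30 at any age (1.77, 5.42 and 2.66%). Of the paralogs other than Actg2, DESeq2 called none against P30 and 2 higher (Myh10 and Tmod2) at both P34 (3.47% of all genes) and P38 (3.05%) than at P32. Abundant genes of these lists were Actb (cytoplasmic β-actin), Kcnma1 (the pore of the calcium-activated BK channel) and Tmod2 (a tropomodulin of neurons). Actb had 299 to 310 CPM at P30 and 265 to 367 CPM in cKO mice, with a log2 fold change of 0.01 (SE 0.14) at P34, while Acta2 stood at -4.73. Kcnma1 (131 to 367 CPM over all mice) and Tmod2 (83.7 to 228 CPM) had their lowest level in P32 mouse 4, as did Mylk and Synpo2.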

How the data were processed

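Whole retinas of 12 mice gave 12 libraries of stranded mRNA. Single reads were mapped by the authors to mm10 (STAR 2.5.3a) and assigned to genes (HTSeq 0.6.1p1), and the deposited values are whole-number counts per gene, not normalized. The strand option of the counting is not given in the sources used here, and antisense partners of Tagln and Mylk are given beside them.

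Counts were scaled to CPM by TMM in edgeR 4.0.16 (R 4.3.3). Genes passing edgeR's filter on low counts were tested with all 12 mice in 1 quasi-likelihood fit with 1 mean per group, P-values were adjusted over all genes tested by the Benjamini-Hochberg method, and the limits were an adjusted p of 0.05 and a log2 fold change of 0.5. Log2 CPM used a prior count of 2 and RPKM the exon length of each gene. Standard errors were obtained from each log2 fold change and the square root of its F statistic. DESeq2 1.42.0 was an alternative, beside other scalings, filters, fits and leaving out each mouse. Names and positions came from GENCODE M21 (GRCm38) and promoter windows from RefSeq (GRCm38.p6). The procedure was tested on simulated counts.

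The genes and all lists were chosen with earlier results of these data known. All 10 genes are named; of the other lists, genes called and the 4 with the largest mean CPM were to be named (1 of these is not reported here), and markers are given as sums. Library totals of 29701483 to 60145034 put 3 counts at 0.0499 to 0.101 CPM, a floor that covers counting error only. Within groups, libraries differed by a chi-square per degree of freedom of 19.7 to 254, so none was a copy of another. Groups were taken from the labels, which name 1 mouse per library. Exon-level reads of Otx2 were not used here.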

Additional observations from a re-analysis of the deposited data

Results flagged for a closer look

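Among the 9 cKO mice, the Tagln level of 3.72 CPM in P32 mouse 4 stood apart from the rest by Dixon's test, with the next highest mouse at 2.40 CPM. Both ends of the range were examined for each of the 10 genes, and chance flags about 1 in 20 such groups.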

How the results depend on the processing

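No paired analysis was possible because the 4 groups share no mouse numbers. DESeq2's size factors in edgeR and a call on adjusted p alone left all counts of contractile genes called as they were. The percentages in parentheses are the share of all genes called in the same way. Genes called lower at P32 numbered 0, but 3 with no filter on low counts (0.05%) and 2 with DESeq2 (0.0818%), and 0 to 3 on leaving out each mouse in turn (3 without P30 mouse 1). At P34 they numbered 4, but 2 with a robust fit (0.628%), 2 with only the conditions compared (1.27%) and 0 with only the female mice (0%), where P34 was 1 mouse, and 0 to 6 on leaving out each mouse (6 without P30 mouse 1, of which 5 were not Cnn1, from which no call is read). At P38 they numbered 0, but 3 with no filter (0.0441%), 3 with DESeq2 (0.159%), and 0 to 3 on leaving out each mouse. Between P34 and P32 they numbered 0, but 1 with no filter (1.25%), 1 with DESeq2 (4.95%), and 0 to 1 on leaving out each mouse (1 without P32 mouse 6). Between P38 and P34 they numbered 0, but 1, higher, with only the conditions compared (0.396%). Over all cKO mice against P30 they numbered 3, but 5 with DESeq2 (0.252%), of which 4 were not Cnn1, 0 with sex as a covariate (0%), 0 with only the female mice (0%), and 0 to 4 on leaving out each mouse. The median log2 fold change between P34 and P32 was 0.10, and -0.37 to 0.23 on leaving out each mouse, with the lowest without P34 mouse 9. Of the correlations between contractile genes, 5 pairs passed, and 7 with DESeq2's size factors, but 0 with deviations from the mean of each age and 0 without P32 mouse 4. The cause of these shifts was not tested. The fits of female mice alone and the correlations without P32 mouse 4 were chosen after seeing the data, as was the choice to print the values without P30 mouse 1 beside the results. Cnn1, at 0 to 4 counts in the cKO mice, is limited by depth.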

Other observations

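Smtn (smoothelin, a cytoskeletal protein of contractile smooth muscle), chosen here after its values were seen, had the same order of levels as Tagln and Cnn2 in the P30 mice. P30 mice had 7.29, 18.4 and 17.9 CPM, P32 mice 8.70, 7.60 and 5.52 CPM, P34 mice 5.08, 5.17 and 6.03 CPM, and P38 mice 5.39, 6.0 and 7.30 CPM. All P34 mice lay below all P30 mice (9.67% of all genes did), whereas P30 mouse 1 lay within the P32 range and just below P38 mouse 12. Against P30 it had log2 fold changes of -0.996 (SE 0.30) at P32, -1.42 (SE 0.31, adjusted p = 0.0724 by edgeR) at P34 and -1.22 (SE 0.30) at P38. DESeq2 called it at P34 and P38, and edgeR without P30 mouse 1 at each age.

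Over the 9 cKO mice, the genes whose log2 CPM lay closest to the mean of the 9 contractile genes tested were Pqlc3 (Pearson r = 0.96), Ppfibp2 (0.96), Syde1 (0.95), Olfml3 (0.95), Epn3 (0.94), Plp2 (0.94), Tent5b (0.93) and Mtap (0.93). For patterns of single genes, picked after their values were seen, the closest gene was Cd24a for Acta2 (r = 0.99), with the lens marker Lctl eighth at 0.98, and Irgm2 for Myh11 (r = 0.94). The genes closest to Tpm2 were led by Zscan2 (r = 0.91) and included the skeletal muscle genes Mylpf (0.90) and Ckm (0.89), and Des (0.89), which encodes desmin of smooth and striated muscle. These are the highest of 18628 correlations each, share the same 9 libraries and are given with no test.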
